A study of Mus musculus with 20 samples.

Results

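A set of 10 core autophagy genes was followed through mouse preimplantation development. They are the 5 ATG8 family genes Gabarap, Gabarapl1, Gabarapl2, Map1lc3a and Map1lc3b, the cargo receptor Sqstm1, the initiation kinase Ulk1, the nucleation factor Becn1, and the conjugation genes Atg5 and Atg7. All 10 were found by symbol among the 24411 genes listed for each of 16 RNA libraries. The set was named as a pathway, but it was chosen by a value for 1 gene, since Gabarapl2 had been noted as the most abundant gene of most morula libraries. The difference of Gabarapl2 between the morula and other stages is therefore given as a description, with no test.

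Autophagy encloses cytoplasm in a double membrane, the autophagosome, and delivers it to the lysosome for breakdown. The ULK1 kinase complex starts the process, the Beclin 1 and VPS34 lipid kinase complex nucleates the membrane, and the E1-like enzyme ATG7 with the ATG12-ATG5 conjugate attaches small ubiquitin-like ATG8 proteins to its lipids, where receptors such as p62 bring in cargo. In mouse embryos autophagy is induced after fertilisation and is known for the breakdown of maternal proteins before implantation.

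Libraries were prepared from polyadenylated RNA of 10 embryos per group, without a statement of whether each library had its own 10. All embryos came from in vitro fertilisation of superovulated oocytes and grew in KSOM medium, and the mouse strain is not given in the sources used here. In the knockdown experiment 1-cell embryos were electroporated with non-targeting siRNA (siControl) or siRNA to Pcgf5 (siPcgf5), a gene for a subunit of Polycomb repressive complex 1, at 3 hpi (the labels do not spell out hpi). They were collected at the late 2-cell stage (36 hpi) and at the morula stage (72 hpi), with 2 libraries in each of the 4 groups. In the knockout experiment 4-cell embryos (48 hpi) that no label says were electroporated were unmodified (WT, 2 libraries), or were titled as a Hetero KO (3 libraries) or a Homo KO (3 libraries) of an MT2C_Mm repeat at Pcgf5; MT2C_Mm is a long terminal repeat of an endogenous retrovirus. Stage and experiment therefore cannot be told apart when 4-cell libraries are set against the others.

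Summed expected counts ran from 14310634 to 55620137 per library, lowest at the 4-cell stage, and 10 of the 10 genes had counts above 0 in every library. A single batch label covers every library. By a chi-square per degree of freedom on counts, the 2 siControl late 2-cell libraries stood furthest apart, at 165 against 42.7 to 71.2 for the other pairs. The siPcgf5 late 2-cell pair, of like depth, stood at 49.5. This measure grows with depth, so the values of the shallower 4-cell pairs (44.1 to 71.2) cannot be set against those of the morula pairs (42.7 and 44.6). At the late 2-cell stage Pcgf5 mRNA, the siRNA target, stood at 316 and 811 CPM with siControl and at 53.9 and 89.4 CPM with siPcgf5. Morula libraries held 246 and 166 CPM with siControl and 39.5 and 32.4 CPM with siPcgf5. It was 328 and 294 CPM in WT, 252 to 336 CPM in Hetero KO and 162 to 211 CPM in Homo KO. Levels are given in CPM (expected counts divided by library size, with TMM scaling over the 16 libraries). Differences are log2 fold changes from edgeR fits over all genes, and were called at a Benjamini-Hochberg adjusted p under 0.05. Their standard error (SE) was derived as the size of the log2 fold change divided by the square root of the edgeR F statistic. For Gabarapl2 between the morula and other stages this SE is likewise a description. The labels do not say whether replicates were separate cultures, and the p-values cover only the spread among these libraries, which may be technical. In pooled embryos, fewer cells of a type and less RNA per cell cannot be told apart.

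The start regions of 3 ATG8 family genes are shown because their mRNAs took different courses: Gabarapl2 and Map1lc3b were the abundant members and increased with stage, and Gabarap did not. Each line gives the 250 bases before the gene's start on the plus strand of GRCm38.p6, from RefSeq, at chr8:111940453-111940702 for Gabarapl2, chr8:121590188-121590437 for Map1lc3b and chr11:69991120-69991369 for Gabarap. Capitals mark the GC box, GGGCGG or its reverse complement CCGCCC.
Gabarapl2: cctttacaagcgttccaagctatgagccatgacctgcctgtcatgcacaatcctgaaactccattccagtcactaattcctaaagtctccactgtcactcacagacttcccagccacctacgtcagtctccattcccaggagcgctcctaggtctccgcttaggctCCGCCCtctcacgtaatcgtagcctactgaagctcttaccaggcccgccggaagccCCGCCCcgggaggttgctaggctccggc
Map1lc3b: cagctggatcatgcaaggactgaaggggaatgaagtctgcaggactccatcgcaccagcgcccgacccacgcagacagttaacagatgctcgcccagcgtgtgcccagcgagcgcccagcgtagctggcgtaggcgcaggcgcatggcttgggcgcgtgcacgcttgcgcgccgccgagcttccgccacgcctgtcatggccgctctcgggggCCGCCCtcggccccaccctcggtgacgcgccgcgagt
Gabarap: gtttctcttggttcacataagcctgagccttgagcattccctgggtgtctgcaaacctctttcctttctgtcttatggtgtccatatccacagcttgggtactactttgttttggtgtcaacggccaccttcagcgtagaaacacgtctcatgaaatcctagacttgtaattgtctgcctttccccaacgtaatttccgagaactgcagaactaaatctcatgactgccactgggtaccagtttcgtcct
Among these 3 windows, that of Gabarapl2 held 2 GC boxes and that of Map1lc3b held 1, while no GC box was found in the Gabarap window. The same letters stood in 6 of the 8 genes with a RefSeq entry (Gabarapl1, Gabarapl2, Map1lc3b, Sqstm1, Ulk1 and Atg5), and in 32.7% of 32851 such windows over the genome, searched on both strands. Map1lc3a and Becn1 had no entry. GC content was 57.2% for Gabarapl2, 69.6% for Map1lc3b and 46.4% for Gabarap, against a median of 52.4% over all windows. The E-box CACGTG, the core of the element bound by the lysosomal regulator TFEB, was found in the Atg5 and Atg7 windows and in 6.02% of all. Those 2 entries start 17 bases (Atg5) and 27969 bases (Atg7) inside the span of the gene, at starts of single transcripts. The Ulk1 entry likewise starts 39 bases inside its gene. CCAAT was found in the Atg7 window alone of the 8, and in 33.8% of all. These matches describe letters only.

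Gabarapl2, whose protein acts in autophagosome maturation and in Golgi traffic, had the highest count of any gene in 3 of the 4 morula libraries and was the third in siPcgf5 morula replicate 1. It took 0.946% to 1.07% of all counts there. The gene spans 111940703 to 111952915 of chromosome 8 (GRCm38.p6). At the late 2-cell stage it stood at 755 and 1820 CPM in siControl and 1769 and 1478 CPM in siPcgf5. At the morula it stood at 12846 and 13258 CPM in siControl and 11701 and 13447 CPM in siPcgf5. Every morula library was thus far above every late 2-cell library, and the siControl and siPcgf5 values overlapped within each stage. The 4-cell libraries lay between them, at 3587 and 5096 CPM in WT, 3394 to 5012 CPM in Hetero KO and 3058 to 3917 CPM in Homo KO. The mean was 10.1 times as high in siControl morula as in siControl late 2-cell, a log2 fold change of 3.35 (SE 0.376). The size depends on which control is used, at 2.85 without siControl late 2-cell replicate 1 and 4.08 without replicate 2. In siPcgf5 the log2 fold change between the stages was 2.93 (SE 0.369), and against WT 4-cell the siControl morula value was 1.59 (SE 0.319). Ranked by TPM, which divides by transcript length, Gabarapl2 was between the third and the fifth most abundant gene of each morula library, so its first rank holds for counts and not per length.

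**Figure D1:**
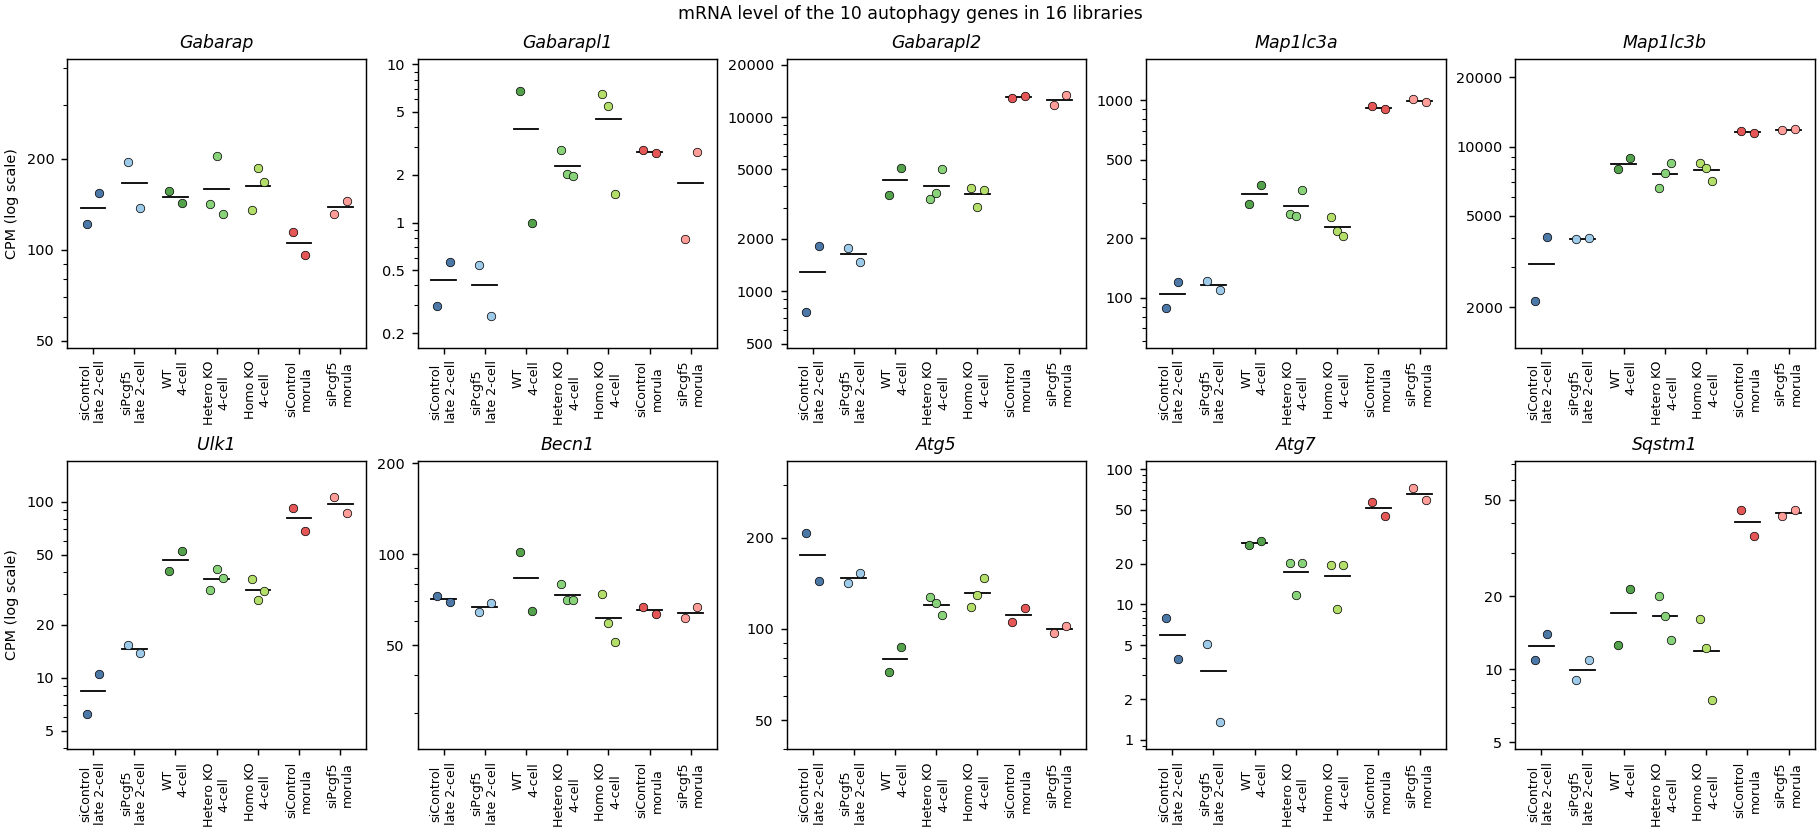
Level of the 10 genes in CPM on log axes (each panel has its own range); each point is 1 library and each bar the mean of its group, ordered late 2-cell, 4-cell and morula. Gabarapl2, Map1lc3a, Map1lc3b, Ulk1, Atg7 and Sqstm1 are highest in the 4 morula libraries, Gabarap and Becn1 stay within a narrow band, and Atg5 is lowest in WT 4-cell.

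Map1lc3b encodes LC3B, the ATG8 protein most used to mark autophagosomes, and lies on the same chromosome (121590438 to 121598760). At 7962 and 8896 CPM in WT it was the second most counted gene in all 8 4-cell libraries. It stood at 2125 and 4023 CPM in siControl and at 3948 and 3986 CPM in siPcgf5 late 2-cell libraries. By the morula it reached 11710 and 11437 CPM in siControl and 11755 and 11963 CPM in siPcgf5. The late 2-cell, 4-cell and morula ranges did not overlap in CPM. The rise from siControl late 2-cell to WT 4-cell was 1.46 on the log2 scale (SE 0.237, edgeR adjusted p 0.00025). From WT 4-cell to siControl morula the value was 0.46 (SE 0.233, edgeR adjusted p 0.151), which was not called, and its sign turned to -0.20 with limma on log2(TPM + 1).

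Map1lc3a encodes LC3A from chromosome 2 (155276364 to 155278073) and had a mean of 196 TPM in siControl late 2-cell libraries, far below the 3151 TPM of Map1lc3b. It stood at 88.9 and 120 CPM in siControl late 2-cell, at 299 and 374 CPM in WT 4-cell and at 933 and 900.2 CPM in siControl morula libraries. These 3 groups did not overlap. The rise was 1.69 (SE 0.216, edgeR adjusted p 3.68e-05) to the 4-cell stage and a further 1.45 (SE 0.214, edgeR adjusted p 0.000104) to the morula. In siPcgf5 it rose by 3.09 (SE 0.227, edgeR adjusted p 3e-06) from 121 and 110 CPM in late 2-cell libraries to 1009 and 980.3 CPM in morula libraries.

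Gabarap, the founding gene of its subfamily (chromosome 11, 69991370 to 69994949), and Gabarapl1, its close relative (chromosome 6, 129533192 to 129542331), were the less abundant members besides Map1lc3a. Gabarap stood at 121 and 155 CPM in siControl late 2-cell, 157 and 142 CPM in WT 4-cell and 115 and 96.3 CPM in siControl morula libraries. Its stage differences were small and not called, at 0.12 (SE 0.25) to the 4-cell stage and -0.38 (SE 0.238) from the late 2-cell stage to the morula. On the TPM scale the latter was -1.39 and was called, so whether Gabarap is called lower depends on the scale. Gabarapl1 was nearly silent, from 0.258 to 0.563 CPM in late 2-cell libraries, 1 to 6.75 CPM at the 4-cell stage and 0.789 to 2.87 CPM in the morula. It was called higher in siControl morula than in siControl late 2-cell (2.71, SE 0.956, edgeR adjusted p 0.0345), but that call was lost whichever of the 4 libraries was left out, with values from 2.32 to 3.19. Its call in WT 4-cell (3.17, SE 1.03, edgeR adjusted p 0.0265) was lost without WT replicate 1 (1.18) and without siControl late 2-cell replicate 1 (2.72) or replicate 2 (3.62).

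Per length, Map1lc3b was the most abundant family member at the late 2-cell stage and Gabarapl2 at the morula. Of the summed TPM of the 5 genes, Map1lc3b made up 49.7% to 54.9% and Gabarapl2 37.1% to 44.4% in the 4 late 2-cell libraries. In the 4 morula libraries Gabarapl2 made up 62.2% to 66% and Map1lc3b 29.5% to 32.3%. The order of the 2 genes was thus opposite at the 2 stages in each library, and in the 8 4-cell libraries it was mixed, with Gabarapl2 at 40.7% to 51.6% and Map1lc3b at 44% to 54.5%. Gabarap went from 3.1% to 5.04% at the late 2-cell stage to 0.406% to 0.595% in the morula. Map1lc3a held 2.44% to 4.95% of the family in all libraries. The summed family level was 4298.5 to 8017.4 TPM at the late 2-cell stage, 11880 to 14832 TPM at the 4-cell stage and 19401 to 20563 TPM in the morula. Shares within a library do not depend on scaling between libraries, and those of the morula use the level by which Gabarapl2 was noted.

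**Figure D2:**
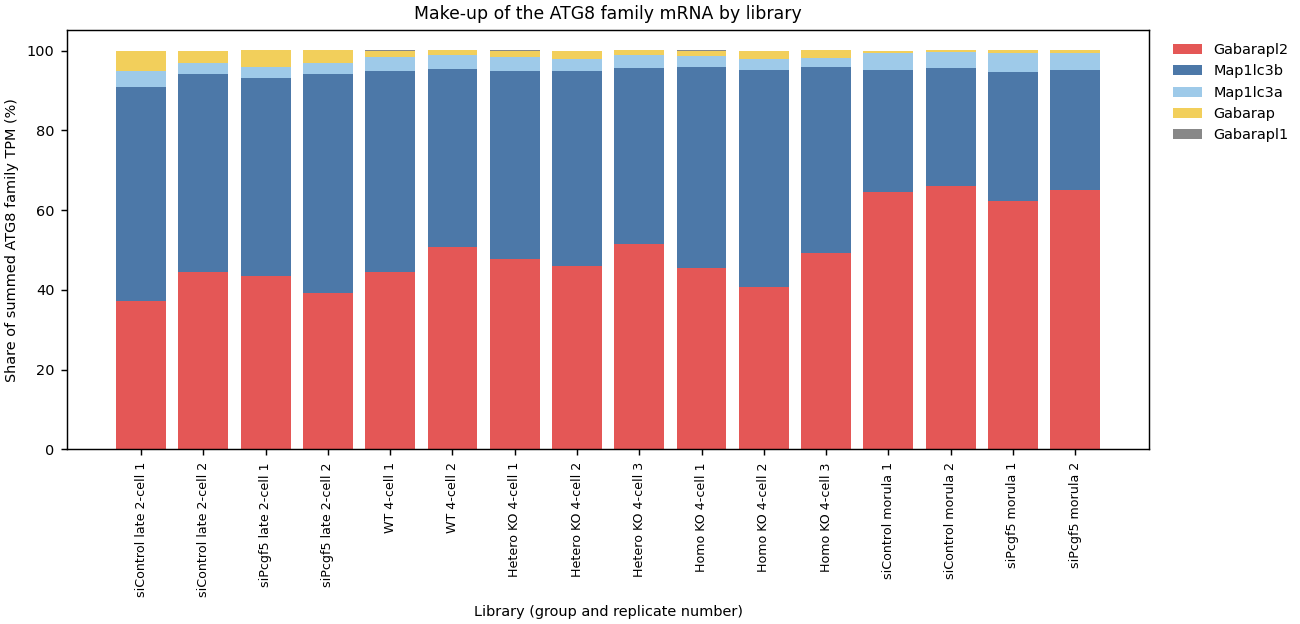
Share of each ATG8 family gene in the summed TPM of the 5 genes, as a stacked bar from 0 to 100% for each library. Gabarapl2 takes 62.2% to 66% in the 4 morula libraries at the right and 37.1% to 44.4% in the 4 late 2-cell libraries at the left.

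Ulk1, the kinase that starts autophagosome formation (chromosome 5, 110784489 to 110810120), rose early. It stood at 6.25 and 10.5 CPM in siControl late 2-cell, 40.6 and 52.3 CPM in WT 4-cell and 92.8 and 68.3 CPM in siControl morula libraries, with no overlap. The rise to the 4-cell stage was 2.47 (SE 0.301, edgeR adjusted p 2.67e-05). The further rise of 0.79 (SE 0.285) to the morula passed narrowly (edgeR adjusted p 0.0451) and was lost without siControl morula replicate 1 (0.59) and without WT replicate 1 (0.67) or replicate 2 (1.00), and on the TPM scale (0.14). Over the whole course to the morula, Ulk1 rose by 3.27 in siControl (SE 0.32, edgeR adjusted p 1.4e-05) and by 2.71 in siPcgf5 (SE 0.31, edgeR adjusted p 4.19e-05).

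Becn1 encodes Beclin 1, the scaffold of the VPS34 complex (chromosome 11, 101288258 to 101302286), and lay between 51.4 and 102 CPM in all 16 libraries. It stood at 72.9 and 69.7 CPM in siControl late 2-cell and 67.1 and 63.4 CPM in siControl morula libraries. The log2 fold change was -0.12 (SE 0.203, edgeR adjusted p 0.637), though -1.11 and called on the TPM scale. Its expected counts were fractional in all 16 libraries, so some of its reads were shared with other genes and its values are less certain than those of the other 9 genes, whose counts were whole.

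The 2 conjugation genes went opposite ways. Atg7, the E1-like enzyme (chromosome 6, 114643127 to 114860604), stood at 7.94 and 3.98 CPM in siControl late 2-cell, 27.7 and 29.3 CPM in WT 4-cell and 57.5 and 45 CPM in siControl morula libraries. It rose by 2.25 (SE 0.531, edgeR adjusted p 0.00424) to the 4-cell stage, which missed the threshold when siControl late 2-cell replicate 2 was left out (1.79), and by 3.10 (SE 0.54, edgeR adjusted p 0.000751) to the morula. Atg5, the partner of ATG12 (chromosome 10, 44268322 to 44364299), stood at 207 and 144 CPM in siControl late 2-cell libraries and fell to 72.1 and 87 CPM in WT 4-cell libraries, by 1.14 on the log2 scale (SE 0.212, edgeR adjusted p 0.000713). The siControl morula libraries held 106 and 117 CPM of Atg5, above both WT 4-cell and below both siControl late 2-cell libraries. The fall to the morula of 0.65 (SE 0.222, edgeR adjusted p 0.0312) did not pass when siControl late 2-cell replicate 1 (-0.36), siControl morula replicate 1 (-0.56) or siControl morula replicate 2 (-0.71) was left out. In siPcgf5 it was -0.58 (SE 0.222, edgeR adjusted p 0.0469), and that call was lost whichever of the 4 libraries was left out, with values from -0.64 to -0.52.

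Sqstm1 (chromosome 11, 50200152 to 50210820) encodes p62, which binds ubiquitinated cargo and ATG8 proteins and is itself degraded by autophagy. It stood at 10.9 and 13.9 CPM in siControl late 2-cell, 12.6 and 21.5 CPM in WT 4-cell and 45.2 and 35.4 CPM in siControl morula libraries. The first 2 groups overlapped (0.46, SE 0.374, not called), and the morula lay above both. The rise from WT 4-cell to siControl morula was 1.24 (SE 0.377, edgeR adjusted p 0.0197), which was lost without siControl morula replicate 1 (1.10) and without WT replicate 1 (0.95), and on the TPM scale (0.60). The rise from late 2-cell to morula was 1.71 in siControl (SE 0.28, edgeR adjusted p 0.000468) and 2.12 in siPcgf5 (SE 0.283, edgeR adjusted p 0.000119).

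Counted together, 6 of the 9 tested genes (all but Gabarapl2) rose and 1 fell between siControl late 2-cell and siControl morula, where edgeR called 24.9% of all 16980 genes higher and 28.1% lower. Their median was 1.92, against -0.34 over all genes. In siPcgf5, 5 of 9 rose and 1 fell, against 24.5% and 28.2% of all genes. The gene called in siControl alone was Gabarapl1 (2.15, SE 0.939, edgeR adjusted p 0.0756 in siPcgf5), and the difference of stage changes between the arms was called for 0 of the 10 genes, as given with the knockdown. From siControl late 2-cell to WT 4-cell, 6 of 10 genes rose and 1 fell, against 17.5% and 15.2% of 16669 genes. From WT 4-cell to siControl morula 3 of 9 rose and 0 fell, against 14.9% and 15.3% of all genes, and 1 of 9 was called without siControl morula replicate 1 or without WT replicate 1. The comparisons share the siControl late 2-cell, WT or siControl morula libraries with each other.

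**Figure D3:**
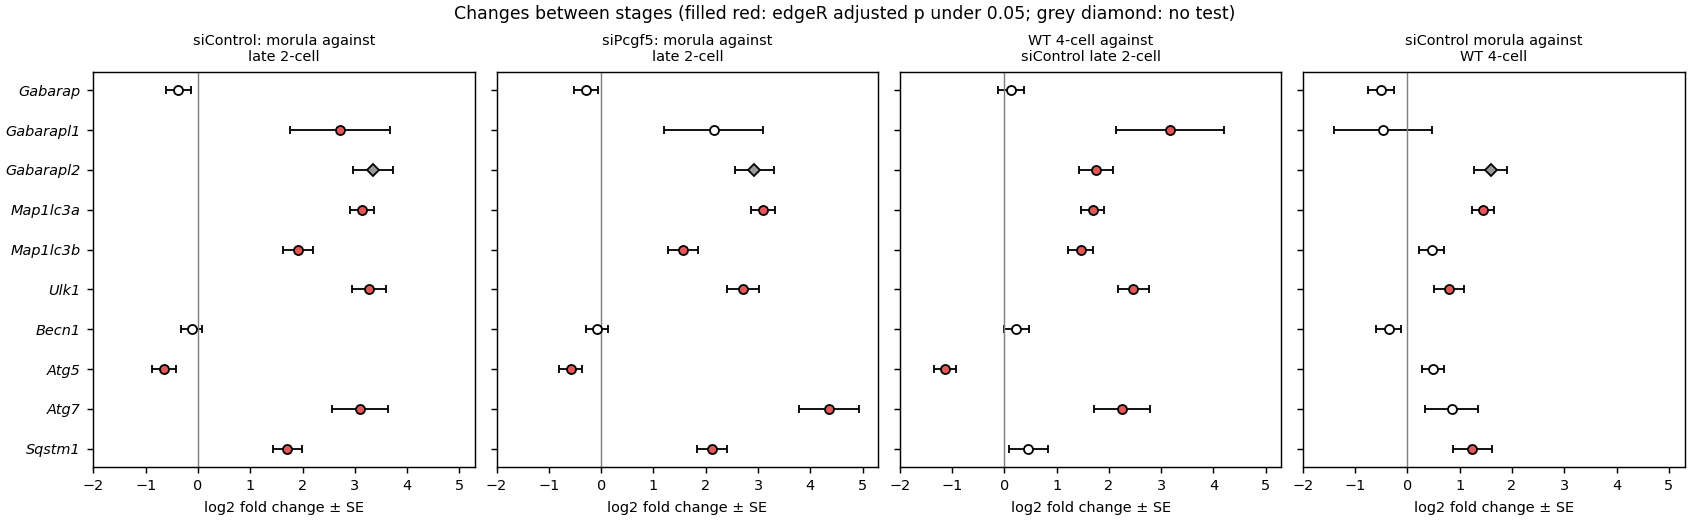
Log2 fold change with SE of the 10 genes in the stage comparisons; filled points passed an edgeR adjusted p under 0.05, open points did not, and Gabarapl2 was not tested where a morula group enters. Ulk1, Map1lc3a and Atg7 lie near 3 from late 2-cell to morula in siControl, while Becn1 and Gabarap lie near 0.

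Scaling matters for these stage differences. TMM factors were 1.19 to 1.3 in the late 2-cell and 0.787 to 0.809 in the morula libraries. The median over all genes moved from -0.34 to -0.51 with DESeq2 size factors and to -0.50 with limma on log2(TPM + 1), and limma called 2474 genes higher and 7431 lower where edgeR called 4220 and 4766. From WT 4-cell to siControl morula, the TPM scale moved that median from 0.00 to -0.17 and turned the sign of Map1lc3b and Atg5 (-0.16), neither of which was called. There limma called Gabarap (-1.18, limma adjusted p 0.00348) and Becn1 (-0.96, limma adjusted p 0.00975) lower, and among the 9 genes 1 was called higher and 2 lower, where edgeR had 3 and 0. Limma called 10% of all genes higher and 21.5% lower in that comparison. Between siControl late 2-cell and siControl morula it called 14.6% higher and 43.8% lower, with 6 of the 9 genes higher and 3 lower. All 7 calls among the 9 genes between siControl late 2-cell and siControl morula kept their direction in both of these scalings.

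Oocyte and maternal markers, and markers of other cell types, also moved with stage. In siControl the summed level of 10 oocyte and maternal genes was 13775 to 19064 CPM at the late 2-cell stage and 52 to 60.2 CPM in the morula. Over the same stages 8 cumulus and granulosa markers went from 21.1 to 22.5 CPM to 0 to 0.102 CPM with 7 of 8 at 0, 5 sperm markers from 10.3 to 10.9 CPM to 0.748 to 0.945 CPM with Tnp2 at 0, and 5 blood and immune markers from 248 to 255 CPM to 16.5 to 19.3 CPM with Hba-a1, Hbb-bs, Hbb-bt and Ptprc at 0. Hbb-bs and Hbb-bt were already at 0 in both siControl late 2-cell libraries, as were the cumulus and granulosa markers Amh and Fshr. Markers of the stages themselves followed the labels: 7 late 2-cell genes summed to 1710 to 2075 CPM and then 24.3 to 39.5 CPM, and 8 morula genes to 52.7 to 56.7 CPM and then 501 to 517 CPM. The part of these markers in the stage results was not tested.

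The wider pathway was read from a list of 82 autophagy genes by role, which includes the 10. Between siControl late 2-cell and siControl morula 36 of 81 tested genes rose and 9 fell, against 24.9% and 28.1% of all genes, and the median was 0.77 against -0.34. Of the 72 genes outside the 10 the counts were 30 and 8. In siPcgf5 41 of 81 rose and 7 fell (24.5% and 28.2% of all genes), with a median of 1.02 against -0.38. From siControl late 2-cell to WT 4-cell 31 of 82 rose and 6 fell (17.5% and 15.2% of all genes), with a median of 0.59 against -0.33, but 24 were called in all without siControl late 2-cell replicate 1. From WT 4-cell to siControl morula 23 of 81 rose and 14 fell (14.9% and 15.3% of all genes), with a median of 0.48 against 0.00, and 22 were called in all without siControl morula replicate 1. With limma on TPM the listed counts were 28 higher and 23 lower between siControl late 2-cell and siControl morula, 27 and 18 in siPcgf5, 24 and 8 for WT 4-cell, and 15 and 24 from WT 4-cell to siControl morula. The list was written with results of these data known, so these counts are descriptions.

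Genes of membrane supply, which carry and shape lipid for the growing autophagosome, mostly rose between late 2-cell and morula, with 8 of 10 higher in siControl (24.9% of all genes), 9 of 10 in siPcgf5 (24.5% of all genes), and 0 lower in either (28.1% and 28.2% of all genes). Wdr45, a lipid-binding WIPI family protein, rose from 42.3 and 27.7 CPM to 341 and 328 CPM in siControl (3.27, SE 0.247, edgeR adjusted p 3.25e-06). Atg2b, a lipid transfer protein, rose by 2.68 (SE 0.414) from siControl late 2-cell to WT 4-cell, and Atg2a by 2.13 (SE 0.614) from WT 4-cell to siControl morula. Tmem41b, a lipid scramblase of the endoplasmic reticulum, fell by 0.75 (SE 0.223) from WT 4-cell to siControl morula.

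Initiation genes changed in both directions, with 3 of 5 higher and 2 lower in siControl, where 24.9% of all genes were higher and 28.1% lower. Ulk2, the close relative of Ulk1, fell from 22.8 and 34.4 CPM to 5.52 and 4.65 CPM (-2.48, SE 0.34, edgeR adjusted p 0.000137), so the 2 kinase genes moved in opposite directions. Ulk2 also fell in siPcgf5 (-2.03, SE 0.334) and was 2.81 lower on the log2 scale, at -2.81 (SE 0.317), in siControl morula than in WT 4-cell. Atg101, a subunit of the same complex, rose by 1.21 (SE 0.254) from WT 4-cell to siControl morula.

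Of 8 nucleation genes 1 rose and 0 fell in siControl, against 24.9% and 28.1% of all genes. That gene was Atg14, which directs the VPS34 complex to autophagy, at 44.4 and 72.1 CPM and then 208 and 218 CPM (1.88, SE 0.254, edgeR adjusted p 0.000126). It also rose in siPcgf5 (1.82, SE 0.253) and from WT 4-cell to siControl morula (0.78, SE 0.234). Pik3c3, the catalytic subunit VPS34, rose by 1.94 (SE 0.397) to WT 4-cell. Uvrag, the subunit of an endosomal form of the complex, fell by 1.69 (SE 0.564) in siPcgf5, where its level was 7.45 ± 5.75 CPM (SD, n = 2) in the morula. Its mean was also lower in siControl, from 24.1 ± 2.61 to 9.54 ± 4.4 CPM (SD, n = 2 each), but was not called there. The difference between the arms was not called.

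Of 11 conjugation genes 4 rose and 2 fell in siControl, not far from the 24.9% and 28.1% of all genes. Atg16l2, a paralogue of the ATG5 partner ATG16L1, was at 0 and 0.451 CPM in siControl late 2-cell and at 26.7 and 21.2 CPM in siControl morula libraries (6.95, SE 0.908, edgeR adjusted p 0.000113). It was also low in the 2 WT 4-cell libraries, at 0.126 and 0.883 CPM. Atg10, the E2-like enzyme for ATG12, fell from 30.6 and 24.8 CPM to 10.2 and 4.01 CPM (-1.95, SE 0.475, edgeR adjusted p 0.0055) and was 33.3 and 41.7 CPM in WT 4-cell.

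Among cargo receptors 6 of 17 were higher and 3 lower in siControl, not far from the 24.9% and 28.1% of all genes. Tex264, a receptor for the endoplasmic reticulum, rose from 4.72 and 2.63 CPM to 48.8 and 36.4 CPM (3.53, SE 0.358, edgeR adjusted p 1.79e-05). Fkbp8, a mitochondrial receptor, rose by 3.83 (SE 0.378) in siPcgf5, and in siControl its mean also went from 3.98 to 44.6 CPM. Tax1bp1, a receptor for ubiquitinated cargo, rose by 2.14 (SE 0.235) from siControl late 2-cell to WT 4-cell. Fundc1, a receptor for mitochondria, fell from 245 and 270 CPM to 57.1 and 72.4 CPM (-1.98, SE 0.227, edgeR adjusted p 4.03e-05). Stbd1, a glycogen receptor, had 363 and 565 counts in siPcgf5 late 2-cell libraries and 0 and 1 count in siPcgf5 morula libraries. In siControl it likewise went from 8.29 and 5.63 CPM to 0.0258 and 0 CPM. Optn, optineurin, was lowest in WT 4-cell, which came from the other experiment, so stage and experiment cannot be told apart. It stood at 11.2 ± 2.08 CPM in siControl late 2-cell, 1.78 ± 0.432 CPM in WT 4-cell and 19 ± 0.756 CPM in siControl morula (SD, n = 2 each). The log2 fold changes were -2.65 (SE 0.826) and then 3.41 (SE 0.849). Wdfy3, which links aggregates to the autophagosome, fell by 2.18 (SE 0.506) from WT 4-cell to siControl morula.

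Genes of fusion with lysosomes rose in 5 of 11 cases and fell in 1 in siControl, against 24.9% and 28.1% of all genes. Vamp8, a SNARE of the lysosome, rose from 57.4 and 44.9 CPM to 390 and 404 CPM (2.96, SE 0.226, edgeR adjusted p 3.32e-06). Vps41, of the HOPS tethering complex, rose by 3.21 (SE 0.219) in siPcgf5 and by 2.87 (SE 0.37) from WT 4-cell to siControl morula. Its mean also went from 29.1 CPM in siControl late 2-cell to 188 CPM in siControl morula. Lamp2, a lysosomal membrane protein, was highest in the 4-cell libraries, with a rise of 1.25 (SE 0.226) and then a fall of 1.19 (SE 0.226). These libraries came from the other experiment, so stage and experiment cannot be told apart. Epg5, a tether, fell by 0.88 (SE 0.335, edgeR adjusted p 0.0476).

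Upstream regulators had 6 of 15 higher and 1 lower in siControl, against 24.9% and 28.1% of all genes. Rheb, the activator of mTORC1, rose from 121 and 124 CPM to 441 and 457 CPM (1.88, SE 0.196, edgeR adjusted p 2.14e-05) and was already 373 and 477 CPM in WT 4-cell. Tfeb, the transcription factor of lysosomal genes, rose in siPcgf5 from 0.363 ± 0.0173 to 11.2 ± 1.04 CPM (SD, n = 2 each; 4.91, SE 0.732, edgeR adjusted p 0.000251). In siControl Tfeb also rose, from 0.685 ± 0.65 to 7.64 ± 1.42 CPM (SD, n = 2 each; 3.44, SE 0.676, edgeR adjusted p 0.00155), and the difference between the arms was not called (1.47, SE 0.909, edgeR adjusted p 0.997). Prkaa2, a catalytic subunit of AMPK, rose from 0.671 ± 0.0331 CPM in WT 4-cell to 10.5 ± 0.108 CPM in siControl morula (SD, n = 2 each; 3.96, SE 0.746). Deptor, an inhibitor of mTOR, fell by 1.53 (SE 0.359) from siControl late 2-cell to WT 4-cell, and Tsc1, of the complex that restrains Rheb, by 2.15 (SE 0.484) from WT 4-cell to siControl morula.

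**Figure D4:**
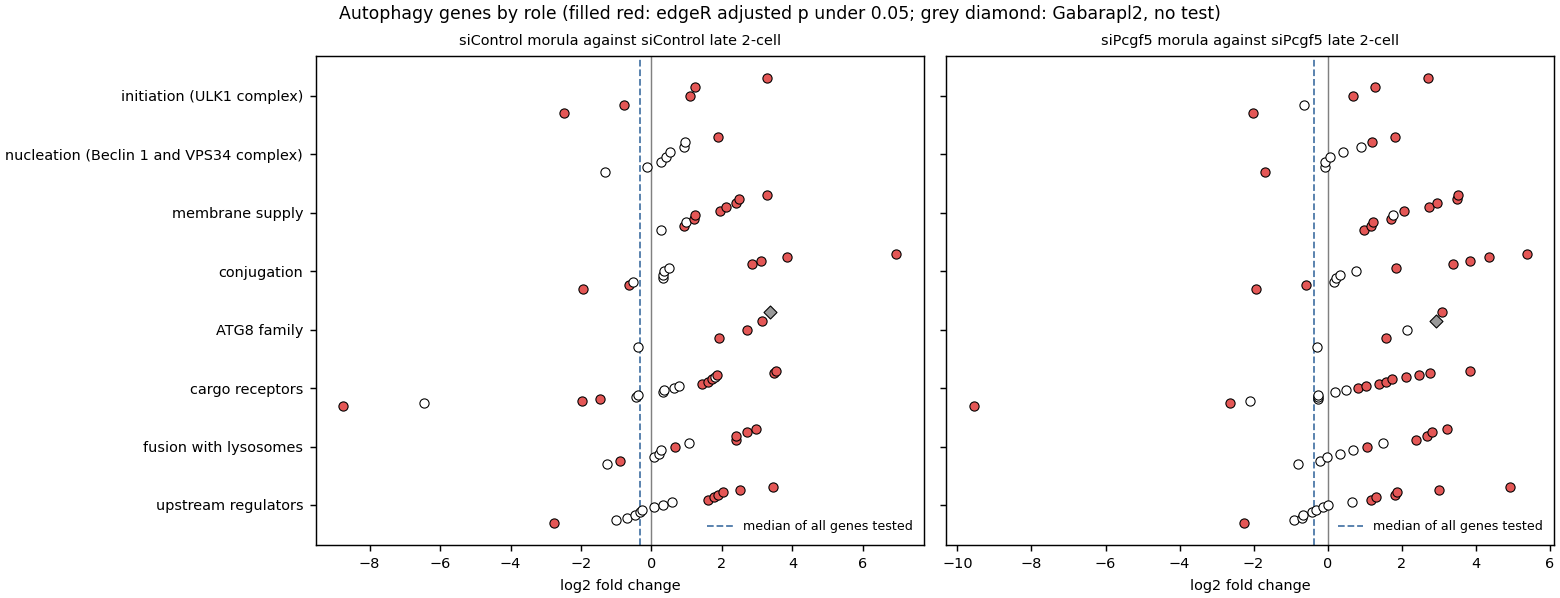
Log2 fold change of the listed autophagy genes from late 2-cell to morula by role, with 1 point per gene; filled points passed an edgeR adjusted p under 0.05 and the line at 0 marks no change. Membrane supply has 8 of 10 genes higher and 0 lower in siControl, and initiation, conjugation and cargo receptors have called genes on both sides.

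Across the 16 libraries the genes whose log2 CPM followed Gabarapl2 most closely, among 6536 genes, included Rpl9 (Pearson r = 0.995), Rpl22 (0.993), Mrps16 (0.992) and Rpl11 (0.992). These 4 genes encode proteins of the cytosolic or mitochondrial ribosome. Of the other autophagy genes, Map1lc3a ranked 63 with r = 0.981, Ulk1 ranked 210 with r = 0.964 and Map1lc3b ranked 405 with r = 0.947. Atg7 (0.862) and Sqstm1 (0.832) followed, and Becn1 (-0.196), Gabarap (-0.380) and Atg5 (-0.671) were negative; Gabarapl1 was below the level needed for this list. These values describe 16 points that share stage and library, mainly 3 stage levels, and carry no p.

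Knockdown of Pcgf5 asks whether these mRNAs change when that Polycomb subunit is depleted. With 2 libraries in each late 2-cell group edgeR called 0 of the 10 genes and 0 of 82 listed genes, against 0.0118% of all genes. DESeq2 and limma also called 0 of either, and over all genes they called 72 and 18. The unadjusted p was under 0.05 for 1 of the 10 and for 7 of the 82, which is 8.54% against 5.58% of all genes. That 1 gene was Ulk1, which stood at 15.4 and 13.8 CPM with siPcgf5 and 6.25 and 10.5 CPM with siControl (0.82, SE 0.299, edgeR adjusted p 0.809). Both siPcgf5 libraries lay above both controls, but the difference did not pass. Gabarapl2 (0.35, SE 0.344) and Map1lc3b (0.38, SE 0.279) overlapped between the groups, with siControl replicate 2 above both siPcgf5 libraries and replicate 1 below both. Without siControl late 2-cell replicate 2, both were called higher, at 1.10 (edgeR adjusted p 0.0249) and 0.90 (edgeR adjusted p 0.0225), with Atg16l2 as the third listed gene; without replicate 1 no gene of the 10 was called. The other listed genes with the smallest p were Rheb (0.58, SE 0.19) and Wipi1, a lipid-binding protein, which stood at 0 and 0.328 CPM with siPcgf5 and 0.801 and 3.08 CPM with siControl.

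At the morula, edgeR, DESeq2 and limma called 0 of the 10 and 0 of the 82 genes in siPcgf5 against siControl, and 0 of the 82 had an unadjusted p under 0.05, against 4.22% of all genes. Over all genes edgeR and limma called 0% and DESeq2 called 0.135%. EdgeR and limma thus did not call Pcgf5 itself, at 39.5 and 32.4 CPM with siPcgf5 and 246 and 166 CPM with siControl. These tests missed the siRNA target, so their lack of calls does not show that the autophagy mRNAs were unchanged. Log2 fold changes of the 10 genes ran from -0.65 (SE 0.885) for Gabarapl1 to 0.38 (SE 0.238) for Gabarap, and those of Gabarapl2 and Map1lc3b were -0.07 (SE 0.343) and 0.02 (SE 0.279). Gabarap held 131 and 145 CPM with siPcgf5 and 115 and 96.3 CPM with siControl, with no overlap. Besides Gabarap, the listed genes with the smallest p were Atg3 (0.56, SE 0.317), the E2-like enzyme for ATG8, and Nfe2l2 (-0.47, SE 0.297), the NRF2 transcription factor that p62 can activate. The difference between the knockdown effects at the 2 stages, which is also the difference of the stage changes between arms, was called for 0 of the 10 and 0 of the 82 genes by all 3 tools. Over all genes edgeR called 0%, DESeq2 32 genes and limma 1, and the unadjusted p was under 0.05 for 0 of the 10, 1 of the 82 and 4.96% of all genes. Among the 10 it was largest in size for Atg7 (1.24, SE 0.719, edgeR adjusted p 0.992). The smallest p values in the list were those of Rheb (-0.72, SE 0.268), Fundc1 (-0.67, SE 0.311) and Wdfy3 (1.19, SE 0.603).

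Deletion of the MT2C_Mm repeat asks whether these mRNAs change at the 4-cell stage when that repeat is lost. It is not an equal depletion of Pcgf5. Pcgf5 mRNA was 162 to 211 CPM in Homo KO, below the 328 and 294 CPM of WT, and 252 to 336 CPM in Hetero KO, overlapping WT. EdgeR did not call Pcgf5 in either KO group against WT. In Homo KO against WT edgeR called 0 of the 10 and 0 of 80 tested listed genes, with 0% of all 13766 genes called; limma called 0 as well. An unadjusted p under 0.05 was found for 2 of the 10 and 10 of the 80 genes, which is 12.5% against 12.4% of all genes. Atg5 stood at 118, 130 and 147 CPM in Homo KO, 128, 122 and 111 CPM in Hetero KO and 72.1 and 87 CPM in WT. All 6 KO libraries lay above both WT libraries, with 0.73 (SE 0.194, edgeR adjusted p 0.236) in Homo KO and 0.59 (SE 0.193, edgeR adjusted p 0.945) in Hetero KO, and the 2 comparisons share the WT libraries. DESeq2 called Atg5 higher in Homo KO (0.75, DESeq2 adjusted p 0.0287), along with 2 listed genes lower, Nfe2l2 (-0.86) and Atg4b (-0.75), the protease that primes ATG8 proteins. Over all 13766 genes DESeq2 called 2.42%, so 3 of 80 listed genes is near its background.

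Map1lc3a was 257, 218 and 205 CPM in Homo KO, below both WT libraries at 299 and 374 CPM (-0.56, SE 0.196, edgeR adjusted p 0.307) and reaching up to the lowest of the 3 Hetero KO libraries, which held 257 to 349 CPM. Ulk1 (-0.55, SE 0.252) and Atg7 (-0.82, SE 0.387) also had no overlap between Homo KO and WT and were not called. For the knockdown and KO comparisons the share of all genes without overlap is not given here. A lack of overlap in them therefore describes these few libraries only. Gabarapl2 (-0.27, SE 0.214) and Map1lc3b (-0.09, SE 0.16) overlapped. Over the 80 listed genes 52 values were negative, with a median of -0.24 against 0.02 over all genes. In Hetero KO against WT 49 of the 80 were negative (median -0.11 against 0.00), and in Homo KO against Hetero KO 52 (-0.15 against -0.01). With siPcgf5 against siControl, 55 of 82 were positive at the morula (0.08 against -0.01) and 41 of 82 at the late 2-cell stage (0.01 against -0.01). A lean in sign was thus not particular to Homo KO, and it was not tested. Nfe2l2 stood at 69.4, 60.9 and 50.6 CPM in Homo KO, 105, 79.7 and 121 CPM in Hetero KO and 115 and 107 CPM in WT (-0.88, SE 0.226, edgeR adjusted p 0.236 against WT). Homo KO libraries also held 354 to 451 CPM of the summed late 2-cell markers, above the 307 and 22.5 CPM of WT and 75 to 173 CPM of Hetero KO, 61.7 to 83.3 CPM of blood and immune markers against 20.2 and 48.3 CPM in WT, and 5.04 to 13.9 CPM of cumulus markers against 1.77 and 2.21 CPM in WT. Hbb-bs, Hbb-bt and Ptprc were at 0 in every Homo KO and WT library, so the blood and immune sums came from Hba-a1 and Hba-a2. Of the 8 cumulus and granulosa markers, Amh, Inha, Has2 and Fshr were at 0 in all Homo KO libraries. In the WT libraries Amh, Has2, Ptx3 and Fshr were at 0. The part of these markers in the Homo KO values was not tested.

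In Hetero KO against WT edgeR, DESeq2 and limma called 0 of the 10 and 0 of the 80 genes. Over all genes edgeR and limma called 0% and DESeq2 called 7 genes. The unadjusted p was under 0.05 for 1 of the 10 and 2 of the 80, against 4.76% of all genes. After Atg5, the listed genes with the smallest p were Ulk2 (-0.76, SE 0.259) and Mtor (0.73, SE 0.356), the kinase that restrains ULK1. In Homo KO against Hetero KO all 3 tools likewise called 0 of the 10 and 0 of the 80, while over all genes edgeR and limma called 0% and DESeq2 called 0.806%. The unadjusted p was under 0.05 for 0 of the 10 and 8 of the 80, which is 10% against 8.22% of all genes. The values of the 10 genes ran from -0.47 (SE 0.365) for Sqstm1 to 0.98 (SE 0.74) for Gabarapl1, and Atg5 was at 0.14 (SE 0.17). The smallest p values belonged to Nfe2l2 (-0.75, SE 0.206), Atg4b (-0.66, SE 0.189) and Pik3r4 (-1.29, SE 0.385), the VPS34 regulatory subunit.

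**Figure D5:**
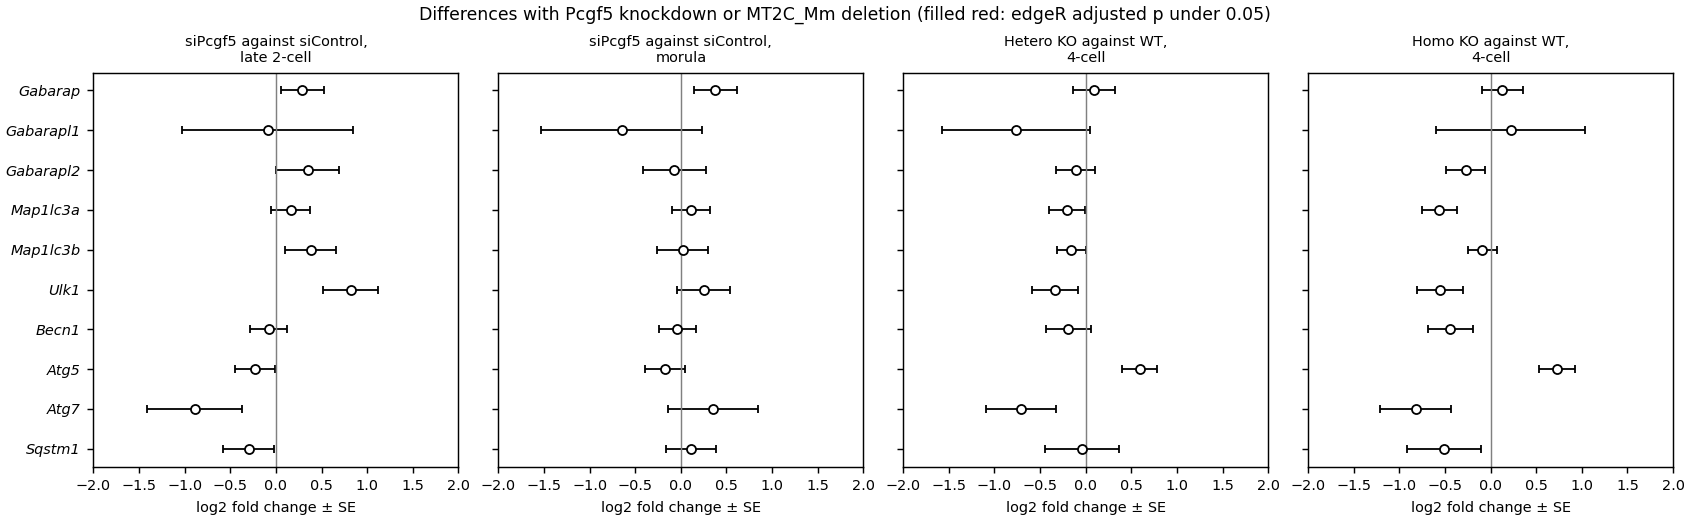
Log2 fold change with SE of the 10 genes with Pcgf5 knockdown (late 2-cell, morula) and in each KO group against WT. All points are open because 0 of the 10 genes passed in edgeR; Ulk1 at the late 2-cell stage (0.82) and Atg5 in both KO groups (0.59 and 0.73) lie furthest above 0.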

How the data were processed

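RNA of 16 libraries was analysed; the 4 ChIP libraries were not analysed here. Each deposited file lists genes by symbol with an RSEM expected count, that is an estimated count with no scaling between libraries. TPM values, per length and per library total, stand beside it in the deposited files. The submitters' processing notes list mm10, RSEM 1.3.3, STAR 2.7.10, Bowtie2 2.4.5 and deepTools but give no role for any of them; read filters are not given in the sources used here. RefSeq's table for GRCm38.p6 holds 23194 of the 24411 symbols, the 10 genes included.

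Expected counts were rounded and fitted with edgeR 4.0.16 in R 4.3.3 (quasi-likelihood F test, robust, two-sided, TMM, filterByExpr with a minimum count of 10, Benjamini-Hochberg over all genes, threshold 0.05). The knockdown fit used 8 libraries and 16980 genes, the knockout fit 8 libraries and 13766 genes, and comparisons of the 4-cell stage with the others used all 16 libraries and 16669 genes. Groups shared 1 estimate of the spread and no replicate block was used. Code was tested on simulated data. The alternatives were DESeq2 size factors in edgeR, every gene kept whatever its counts, DESeq2 1.42.0 (Wald test), limma 3.58.1 with trend on log2(TPM + 1), the replicate block, 1 fit over all 16 libraries, and leaving out each library.

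The genes, the lists by role and the markers were chosen with earlier results of these data known. Per stage comparison and role, the called genes with the largest rise and fall among those with at least 10 CPM in the higher group were named, and per perturbation the 3 listed genes with the smallest p. A gene of the stage or perturbation rule may recur. Likeness to Gabarapl2 used log2 CPM with a prior count of 2 over genes with a mean of at least 10 CPM, without predicted genes and pseudogenes, and 1 of the 5 genes it names is not reported here. Of the 82 listed genes 2 were found by older symbols. Depth sets the precision of low genes such as Gabarapl1, with 11 to 122 counts per library.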

Additional observations from a re-analysis of the deposited data

How the results depend on the processing

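Leaving out 1 library moved 3 comparisons, with the lone library of a pair assumed to vary like the other groups. For siControl morula against WT 4-cell, 1 to 3 of the 10 genes and 22 to 30 listed genes were called, against 3 and 37; the lowest came without siControl morula replicate 1, and 1 gene of the 10 also without WT replicate 1. For WT 4-cell against siControl late 2-cell 24 to 33 listed genes were called, lowest without siControl late 2-cell replicate 1, against 37. For siPcgf5 against siControl at the late 2-cell stage 0 to 2 of the 10 and 0 to 3 listed genes were called, against 0, the highest without siControl late 2-cell replicate 2. The DESeq2 Wald test called 1 of the 10 and 3 listed genes in Homo KO against WT, where edgeR called 0. The other counts, taken as higher and lower calls together, stayed within 1.5 times of the values given. The split between higher and lower calls was not part of this bound. With limma on TPM it shifted towards lower calls in the listed genes between late 2-cell and morula and from WT 4-cell to siControl morula, as given above. No called value reversed. Of 1060 single-gene values under alternatives, 55 had another sign where neither value was called. The Gabarapl2 stage change on the TPM scale was 2.45 in siControl, 2.06 in siPcgf5 and 0.92 against WT 4-cell.

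With the replicate block, calls among the 9 tested genes were 7 for the siControl stage change, 5 in siPcgf5, 7 for WT 4-cell against siControl late 2-cell (10 genes) and 2 for siControl morula against WT 4-cell, against 7, 6, 7 and 3. Atg5 in siPcgf5 (-0.58, edgeR adjusted p 0.0683) and Ulk1 against WT 4-cell (0.80, edgeR adjusted p 0.0659) lost their call. Same-numbered libraries did not deviate together: correlations between groups were -0.04 to 0.01 in the knockdown and -0.13 to 0.17 in the knockout experiment.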
